A study of Mus musculus with 24 samples.

Results

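The miR-200 family is described here through the 6 of its mature miRNAs that were chosen by name, mmu-miR-200a-3p, mmu-miR-200b-3p, mmu-miR-200b-5p, mmu-miR-200c-3p, mmu-miR-141-3p and mmu-miR-429-3p, out of 1881 mouse miRNAs with probes on the arrays. The signal of a miRNA was the sum over its probes whose signal lay above 3 probe errors, and a miRNA with at least 1 such probe on an array is called detected there. The 24 one-color arrays covered the cornea, iris, lens, retina, choroid (RPE/choroid in the methods), sclera and a pair of brain regions, SCN and LGN, of male C57BL/6J mice. Each tissue was measured once in normal eyes without a lens (labeled Control), once in eyes with a 0D lens and once in lens-induced eyes, which wore a −30 D lens. The −30 D lens was fixed over the right eye at 3 weeks of age and worn for 3 weeks. The methods give this schedule for the −30 D lens and do not describe the 0D lens. For the ocular tissues of the normal and lens-induced groups, the methods state that RNA of 3 mice was mixed for an array. Pooling for the 0D group and the brain regions is not stated in the sources used here. The 3 arrays of a tissue therefore come from 3 lens groups, and each ± SD below is the spread over them, not a spread between animals of one condition.

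MiR-200 family miRNAs are made in epithelial cells, where they repress the transcription factors ZEB1 and ZEB2, which themselves repress E-cadherin. They are widely used as markers of the epithelial state, and they fall when epithelial cells take on mesenchymal features. The surface of the cornea is a stratified epithelium, whereas the iris carries a pigmented epithelium on its back surface over a stroma of mesenchymal origin.

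The family comes from a pair of genomic clusters. In GRCm38.p6 the genes Mir429, Mir200a and Mir200b lie on the minus strand of chromosome 4 at chr4:156053905-156053987, chr4:156054896-156054985 and chr4:156055681-156055750, a span of 1846 bases inside the annotated lncRNA gene Gm13648. Mir141 and Mir200c lie on the minus strand of chromosome 6 at chr6:124717914-124717985 and chr6:124718322-124718390, a span of 477 bases between the protein-coding genes Phb2 and Ptpn6. The mature sequences are shown because the seed, bases 2 to 8 and given in capitals, groups the members otherwise than the genome does, and because some members differ at few bases. They were taken from RefSeq, with an entry for 6 of the 6 miRNAs.
mmu-miR-200b-3p (chromosome 4): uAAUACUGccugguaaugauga
mmu-miR-429-3p (chromosome 4): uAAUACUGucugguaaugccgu
mmu-miR-200c-3p (chromosome 6): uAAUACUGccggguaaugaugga
mmu-miR-200a-3p (chromosome 4): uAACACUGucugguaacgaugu
mmu-miR-141-3p (chromosome 6): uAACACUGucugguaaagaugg
mmu-miR-200b-5p (chromosome 4): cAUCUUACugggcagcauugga

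MiR-200b-3p, miR-429-3p and miR-200c-3p shared a seed that no other of the 1679 mature miRNAs in the RefSeq table carried, and miR-200a-3p and miR-141-3p shared a seed of which the same was true. Each seed is thus represented in both clusters. Any member of one seed group differed from any member of the other at 1 seed base. Counted from the 5′ end over 22 positions, miR-200b-3p differed from miR-200c-3p at 2 positions and miR-200a-3p from miR-141-3p at 2 positions, all of them after the seed. Whether the probes tell these pairs apart was not tested. The seed of miR-200b-5p, the arm from the other side of its hairpin, was shared with miR-200a-5p alone.

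Between 6.86% and 13.2% of the 1881 miRNAs were detected on an array, with the fewest on the lens and cornea arrays. For comparison between arrays, signals were divided by a factor that brought the 75th percentile of the 79 miRNAs found on every one of the 24 arrays to a common value. The base 2 logarithm of this percentile, relative to the average array, ran from −1.65 to 1.01, so that the limit of detection after scaling was highest on the lens arrays. Each of the 3 slides held the 8 tissues of 1 lens group, so slide, pool of mice and lens group cannot be told apart, whereas tissues were compared within slides. The retina and cornea labels were set against miRNAs known for those tissues, and no such check is given here for the other labels. Retinal miR-183-5p, miR-96-5p and miR-182-5p summed to between 14498 and 16170 on the retina arrays and to at most 1436 on any other array. The surface epithelium markers miR-205-5p, miR-203-3p and miR-31-5p were all detected on the 3 cornea arrays and summed to between 1169 and 1437 there. Of these, miR-31-5p was brighter on the lens arrays, with 321 to 370 against 211 to 273 on the cornea arrays. Striated muscle markers (miR-1a-3p, miR-133a-3p, miR-133b-3p and miR-206-3p) summed to between 686 and 757 on the lens arrays and to at most 330 on any other array. The reason was not tested.

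In the cornea 5 of the 6 members were bright on every array, and across the whole set they were detected in the cornea and the iris and on none of the 18 arrays of the lens, retina, choroid, sclera, SCN and LGN. MiR-200b-3p had a scaled signal of 523 in the normal cornea, 543 in the 0D cornea and 495 in the lens-induced cornea, which gave 520 ± 24 (SD, n = 3). Its partner of the same seed on chromosome 6, miR-200c-3p, had 545, 455 and 506 in the same order, or 502 ± 45.4 (SD, n = 3). MiR-429-3p, the third member with that seed, had 302, 276 and 266, or 281 ± 18.9 (SD, n = 3). No array stood apart from the other two for these miRNAs, and the highest was the 0D array for miR-200b-3p and the normal array for the others.

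For the members with the other seed, miR-200a-3p had a scaled signal of 150 in the normal, 171 in the 0D and 140 in the lens-induced cornea, or 154 ± 15.5 (SD, n = 3). MiR-141-3p had 260, 252 and 213, or 242 ± 24.9 (SD, n = 3). The error of a single cornea array was 44.3 to 48.4 for miR-200b-3p, above its SD over the 3 arrays, and 39.6 to 48.9 for miR-200c-3p, which spans its SD. It was 19.3 to 22.3 for miR-429-3p, 12.2 to 14.8 for miR-200a-3p and 19.3 to 24.1 for miR-141-3p. The SD over the arrays thus lay below this range for miR-200b-3p and miR-429-3p and slightly above it for miR-200a-3p and miR-141-3p. Signals of different miRNAs rest on different probes and are not ranked against each other here.

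**Figure D1:**
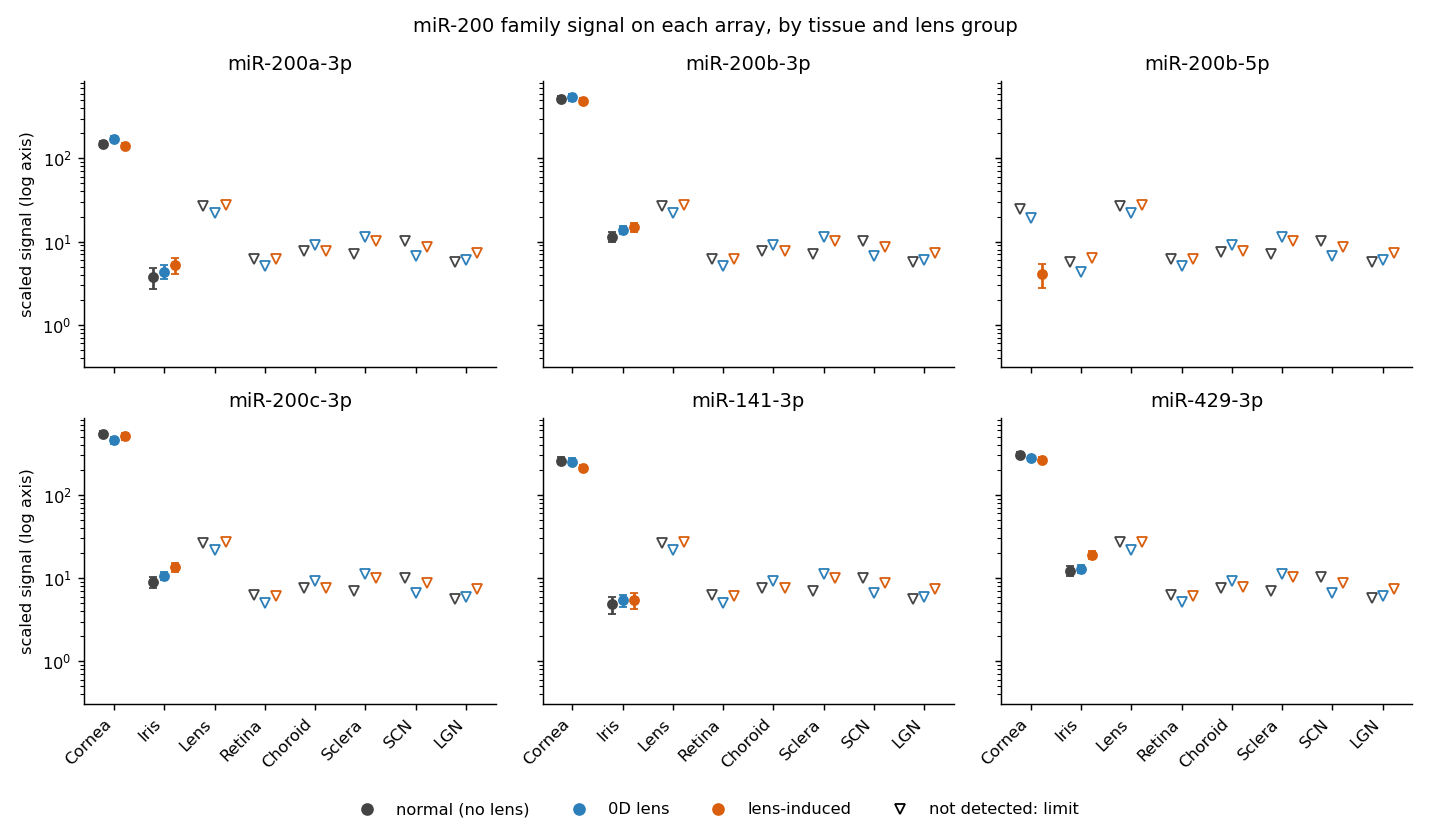
Scaled signal (log axis) of the 6 miRNAs on the 24 arrays, by tissue, with normal, 0D and lens-induced arrays in grey, blue and orange. Filled points are detected signals with the error of the array, and open triangles are the limit on arrays without detection. The cornea signals of 5 members lie between 140 and 545, the iris signals between 3.74 and 19.0, and no filled point is present in the 6 other tissues.

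Since the members were not detected in 6 tissues, the cornea signal can be set against these only as a lower bound. The bound took the mean log2 signal of the 3 cornea arrays against the mean limit of the 3 arrays of the other tissue, where the limit on an array was 3 times the errors of all probes of the miRNA added together, or the lowest signal detected on that array if higher. Against the retina the cornea was at least 90.0-fold higher for miR-200b-3p, 86.6-fold for miR-200c-3p, 48.5-fold for miR-429-3p, 41.6-fold for miR-141-3p and 26.5-fold for miR-200a-3p. Against the lens, where the limit was highest, the bounds were the lowest of the 6 tissues, from at least 6.07-fold for miR-200a-3p to at least 20.6-fold for miR-200b-3p. The sclera gave bounds from at least 16.5-fold to at least 56.1-fold, and the choroid from at least 18.9-fold to at least 64.0-fold. In bulk RNA, fewer cells with a miRNA and less of it per cell cannot be told apart.

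To test the cornea against the mean of the 5 other ocular tissues, a limma fit with terms for tissue and lens group was made over 352 miRNAs detected on at least 3 arrays, with every value under a common floor of 9.93 set to that floor. MiR-200b-5p, detected on 1 array, was not among them. All 5 members tested were higher in the cornea, where 9.66% of the 352 miRNAs were called higher (at least 2-fold, limma, Benjamini-Hochberg adjusted p under 0.05). The log2 differences, with standard errors, were 5.63 ± 0.046 for miR-200b-3p, 5.62 ± 0.060 for miR-200c-3p, 4.71 ± 0.081 for miR-429-3p, 4.60 ± 0.034 for miR-141-3p and 3.95 ± 0.032 for miR-200a-3p. The adjusted p-values of limma ran from 1.07e-21 for miR-141-3p to 6.15e-17 for miR-429-3p. These p-values and the standard errors are too small. The 18 arrays without detection, 12 of them ocular, sit at the floor and have no spread. For miR-200a-3p and miR-141-3p the 3 iris arrays sit at the floor too. The differences depend on the floor for the same reason. An exact permutation test that does not use this spread, over the 216 ways to choose 1 ocular array of each lens group as the cornea, gave a one-sided p of 0.00463 for each of the 5 miRNAs, the smallest it can give. For each of them all 3 cornea arrays lay above all 15 other ocular arrays, which held for 5.68% of the 352 miRNAs tested. The tests were chosen with earlier results of these data known, and the 5 members passed the filter only through cornea and iris arrays. Both sets of p-values are therefore a description and no independent support.

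The pattern was shared with few other miRNAs. Besides these 5, miR-205-5p, a miRNA of stratified epithelia, was the only one of the 1881 detected on all cornea and iris arrays and on no other, and miR-203-3p and miR-503-5p were detected on the 3 cornea arrays and nowhere else. Of a list of 10 miRNAs known from epithelia, 4 passed the cornea test upward and 1 downward, and the median log2 difference of the list was 0.09, beside −0.01 over all 352 miRNAs and 4.71 over the 5 members. The 4 were miR-205-5p with a log2 difference of 6.69 ± 0.038 (SE), miR-184-3p of cornea and lens with 6.51 ± 0.20, miR-31-5p with 3.16 ± 0.14 and miR-203-3p with 2.73 ± 0.022, and the 1 that fell was the sensory miR-183-5p with −2.04 ± 0.30. MiR-203-3p entered the test through the cornea arrays alone, so it could only be higher there. Its standard error and that of miR-205-5p are too small, since arrays without detection sit at the floor. MiR-34a-5p, miR-96-5p, miR-182-5p, miR-375-3p and miR-24-3p lay between −0.995 and 0.35 and were not called. The lens, a tissue with an epithelium of its own, had miR-31-5p at 321 to 370, above the 211 to 273 of the cornea. It had miR-184-3p at 11130 to 16390, with no member of the family detected on its 3 arrays. The limits for the members on these arrays, 21.9 to 27.5, were above every iris signal of the members, 3.74 to 19.0. Signals as low as those of the iris could therefore go undetected in the lens.

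Over all 24 arrays the log2 values of the 5 members moved together, with Pearson r between 0.991 and 0.9997 over the 10 pairs. These correlations rest on the 3 cornea arrays standing above 21 arrays at or near the floor, and the points share scaling and slides, so they are a description. Among 197 other miRNAs detected on at least 12 arrays, the same 3 were most like each of the 5 members: miR-93-5p with r between 0.952 and 0.965, miR-15b-5p with r between 0.844 and 0.847 and miR-148a-3p with r between 0.794 and 0.813.

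Against the brain regions, the mean of the 5 non-retinal ocular tissues was higher for 3 of the 5 members, beside 15.3% of the 352 miRNAs called higher. The log2 difference was 1.23 ± 0.035 (SE) for miR-200b-3p, 1.17 ± 0.046 for miR-200c-3p and 1.07 ± 0.062 for miR-429-3p, whereas miR-141-3p with 0.92 ± 0.026 and miR-200a-3p with 0.79 ± 0.024 stayed under 2-fold. These differences came from the cornea. Without the 3 cornea arrays, a fit added after the data were seen, the log2 difference was at most 0.14 and 0 members were called. MiR-200b-3p had an adjusted p of 0.0187 in that limma fit, and its log2 difference of 0.11 was under 2-fold. It was the 1 member with an unadjusted p under 0.05. The standard errors and p-values of both fits are too small, since the arrays without detection sit at the floor and have no spread.

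The iris held the 5 members at low levels on all 3 of its arrays. MiR-429-3p had a scaled signal of 12.3 in the normal, 12.9 in the 0D and 19.0 in the lens-induced iris, or 14.7 ± 3.73 (SD, n = 3). MiR-200b-3p had 11.5, 13.7 and 14.9, or 13.4 ± 1.76 (SD, n = 3), and miR-200c-3p had 8.90, 10.67 and 13.6, or 11.1 ± 2.37 (SD, n = 3). MiR-141-3p had 4.83, 5.43 and 5.47, and miR-200a-3p had 3.74, 4.36 and 5.23. No iris array reached the lowest cornea array for any member, and within the iris the normal array was lowest and the lens-induced array highest for all 5.

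The iris could be set against the 6 tissues without detection through the same limits. MiR-429-3p was at least 2.49-fold higher in the iris than in the retina, miR-200b-3p at least 2.30-fold and miR-200c-3p at least 1.88-fold, and the bounds against the sclera were at least 1.55-fold, 1.43-fold and 1.17-fold. For miR-200a-3p and miR-141-3p the mean iris signal lay under the mean limit of each of the other 6 tissues, and no member had a bound above 1 against the lens. The limit adds the errors of both probes whereas detection needs 1 probe, so that a signal can be detected below it, as miR-200a-3p was on all 3 iris arrays. The limma fit over pairs of tissues could not decide this for the iris. The highest iris signal of a member, 19.0, is under 2 times the common floor of 9.93, so no member could reach 2-fold. The log2 differences between the iris and the 6 tissues, from 0 to 0.54, are bounded by that floor. In the same fit 11.4% of 352 miRNAs were called higher in the iris than in the retina. By signal and bounds the cornea came first for all 5 members. The iris was above 5 of the remaining tissues by the bounds for miR-429-3p, miR-200b-3p and miR-200c-3p. These bounds compare means and carry no error. For miR-200c-3p the 0D iris had 10.67 against a 0D sclera limit of 11.2. Its normal iris had 8.90 with an error of 1.31, against a normal SCN limit of 10.2. The place of the iris is therefore not settled for miR-200c-3p. MiR-200b-3p in the normal iris had 11.5 with an error of 1.49, against a normal SCN limit of 10.1. MiR-429-3p in the 0D iris had 12.9 with an error of 1.37, against a 0D sclera limit of 11.2. Both lay above the limit by less than 2 errors, so their place rests on the bounds alone. The iris had no place relative to the lens for any member, and none relative to the 6 tissues for miR-200a-3p and miR-141-3p. Those 6 tissues had no order among themselves.

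At the level of single probes the cornea and iris differed in how many probes carried the signal. Each of the 5 members has 2 probes, and on the cornea arrays all 10 probes had signals between 5.62 and 9.98 errors. In the iris both probes of miR-429-3p passed 3 errors, whereas 1 of the 2 probes of miR-200a-3p, miR-200b-3p, miR-200c-3p and miR-141-3p did. On the 18 arrays of the other tissues none of 180 readings of these probes passed, the highest being 2.52 errors for a miR-429-3p probe on the normal SCN array. That array gave the highest reading for 6 of the 10 probes, without a detection.

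**Figure D2:**
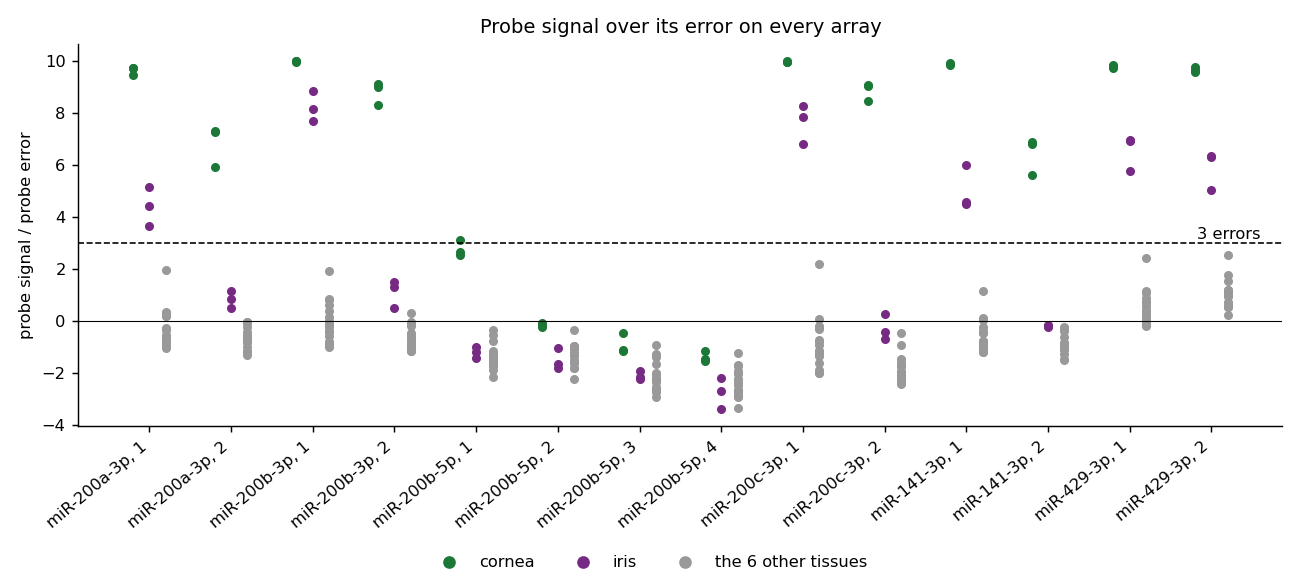
Signal divided by its error for each probe of the 6 miRNAs on every array, with cornea in green, iris in purple and the 6 other tissues in grey, and the limit of 3 errors as a dashed line. The 10 probes of 5 members pass in the cornea, 6 of them pass in the iris and none elsewhere, and for miR-200b-5p 1 of 4 probes lies near the limit in the cornea.

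Set against the cornea of the same lens group, the iris signal amounted to a few percent for each member. For all members but miR-429-3p the iris sum holds 1 probe and the cornea sum 2, which lowers these shares. The iris had 2.49%, 2.55% and 3.73% of the cornea signal of miR-200a-3p in the normal, 0D and lens-induced groups, with errors from both arrays of 0.72, 0.54 and 0.90. MiR-200b-3p had 2.20%, 2.53% and 3.01%, and miR-429-3p had 4.08%, 4.66% and 7.17%. On chromosome 6, miR-200c-3p had 1.63%, 2.35% and 2.69%, and miR-141-3p had 1.86%, 2.16% and 2.57%. The lens-induced group had the highest share for all 5 members after scaling, and the 0D group had it for all 5 without scaling, as for miR-200b-3p with 8.75% in the 0D and 6.52% in the lens-induced group.

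In each of the 3 lens groups both members of the chromosome 6 cluster lay below all 3 members of the chromosome 4 cluster. The mean log2 share of the chromosome 6 members was lower by 0.69 in the normal, 0.47 in the 0D and 0.72 in the lens-induced group, and when the bright probe alone was used, a reading added after the data were seen, the order was the same and the differences were −0.68, −0.41 and −0.69. MiR-429-3p had the highest share in each lens group, so part of these mean differences rests on 1 member. The gap between the nearest members was within their array errors, as for miR-200b-3p with 2.20% ± 0.35 and miR-141-3p with 1.86% ± 0.45 in the normal group. Grouped by seed instead, the shares overlapped, since miR-429-3p was highest and miR-200c-3p near the lowest. The cluster difference rests on 3 lens groups and is given as a description, with no test.

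Other miRNAs of the corneal epithelium were measured in the same arrays. Mean iris shares were 0.56% ± 0.16 (SD, n = 3) for miR-205-5p, 1.60% ± 0.24 for miR-184-3p and 7.98% ± 1.15 for miR-31-5p, and miR-203-3p was not detected in the iris, which allows up to 10.3% in the lens-induced group. The 5 members had means from 2.19% for miR-141-3p to 5.30% for miR-429-3p. As sums over probes they lay above miR-205-5p and miR-184-3p, except where miR-200c-3p overlapped the range of miR-184-3p, and below miR-31-5p. With the bright probe alone miR-200c-3p had 1.85% to 3.03% and miR-184-3p 1.38% to 1.83%, without overlap. Whether corneal tissue in the iris samples had a part in these signals was not tested. The shares depend on the scaling, and without it they ranged from 4.67% to 16.1% for the 5 members and from 1.18% to 2.52% for miR-205-5p.

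**Figure D3:**
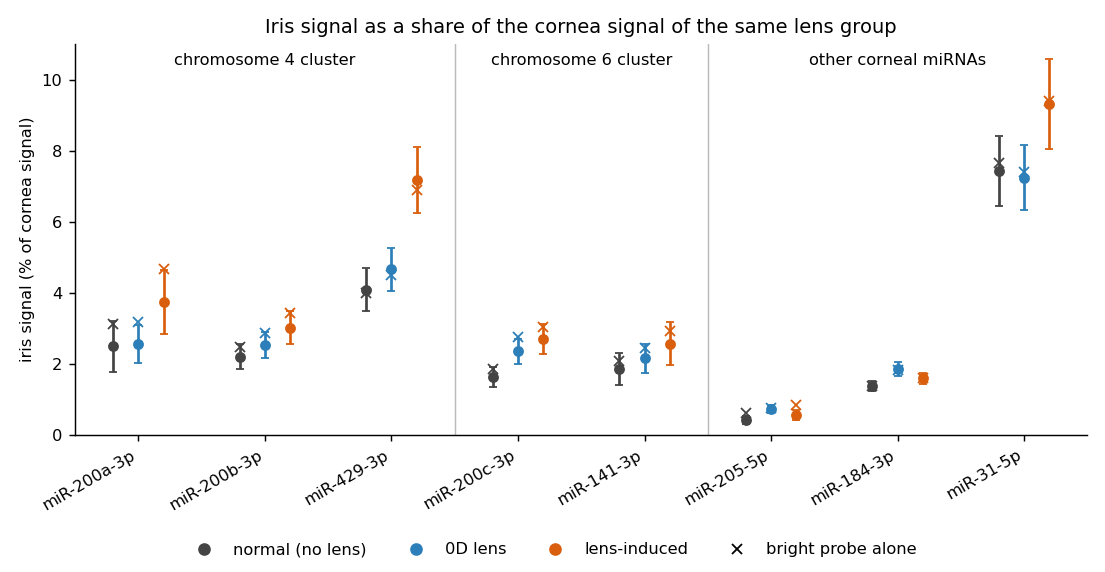
Iris signal as a percent of the cornea signal of the same lens group, for the 5 members by cluster and for miR-205-5p, miR-184-3p and miR-31-5p. Points are sums over probes with the error propagated from both arrays, and crosses are the bright probe alone. The members lie between 1.63% and 7.17%, above miR-205-5p in every lens group.

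The lens groups were compared to ask whether the family changed with lens wear. Over the 6 ocular tissues, with tissue as a block, none of the 5 members was called in lens-induced against normal eyes, where 0.0% of 308 miRNAs were called by limma and 29 of them had an unadjusted p under 0.05. The log2 differences ran from −0.05 ± 0.035 (SE) for miR-141-3p to 0.07 ± 0.086 for miR-429-3p. For 0D against normal eyes the differences of the members ran from −0.03 to 0.05, with 0.0% of 308 called and 30 at an unadjusted p under 0.05. For lens-induced against 0D eyes they ran from −0.05 to 0.09, with 0.0% called and 46 at an unadjusted p under 0.05. In these means 4 of the 6 tissues hold every member at the floor, and the iris holds miR-200a-3p and miR-141-3p there too. A change in the cornea or iris is therefore diluted, and the standard errors are lowered. A fit to the cornea and iris arrays alone was added after the data were seen. It set undetected values to the lowest signal detected on the array instead of using the common floor. No member was called in it either, with a 95% interval from −0.57 to 1.01 for miR-429-3p in lens-induced against normal.

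Within the cornea all 5 members were lower in the lens-induced than in the normal array, with no ratio reaching 2-fold. The log2 ratios, each with the error of both arrays, were −0.10 ± 0.18 for miR-200a-3p, −0.08 ± 0.18 for miR-200b-3p, −0.11 ± 0.18 for miR-200c-3p, −0.28 ± 0.19 for miR-141-3p and −0.19 ± 0.15 for miR-429-3p. All 5 lay within 2 errors of 0, and their common sign came from the scaling, which moved the ratio by −0.29. Without scaling all 5 were at or above 0, between 0.01 and 0.21. For 0D against normal corneas 2 of the 5 were higher, and the ratios lay between −0.26 and 0.18.

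Within the iris all 5 members were higher in the lens-induced than in the normal array. The log2 ratio was 0.63 ± 0.24 for miR-429-3p and 0.61 ± 0.28 for miR-200c-3p, both more than 2 errors above 0. It was 0.48 ± 0.51 for miR-200a-3p, 0.38 ± 0.26 for miR-200b-3p and 0.18 ± 0.45 for miR-141-3p, within 2 errors of 0. The 5 ratios stayed above 0 without scaling, between 0.07 and 0.51. The 0D iris lay between the normal and lens-induced iris for all 5 members after scaling, with log2 ratios to normal from 0.06 to 0.26. Without scaling the 0D iris was the highest of the 3, with log2 ratios to normal from 0.53 to 0.74, so the order of 0D and lens-induced iris depends on the scaling. With 1 array a group these comparisons have no replicate check and no test.

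**Figure D4:**
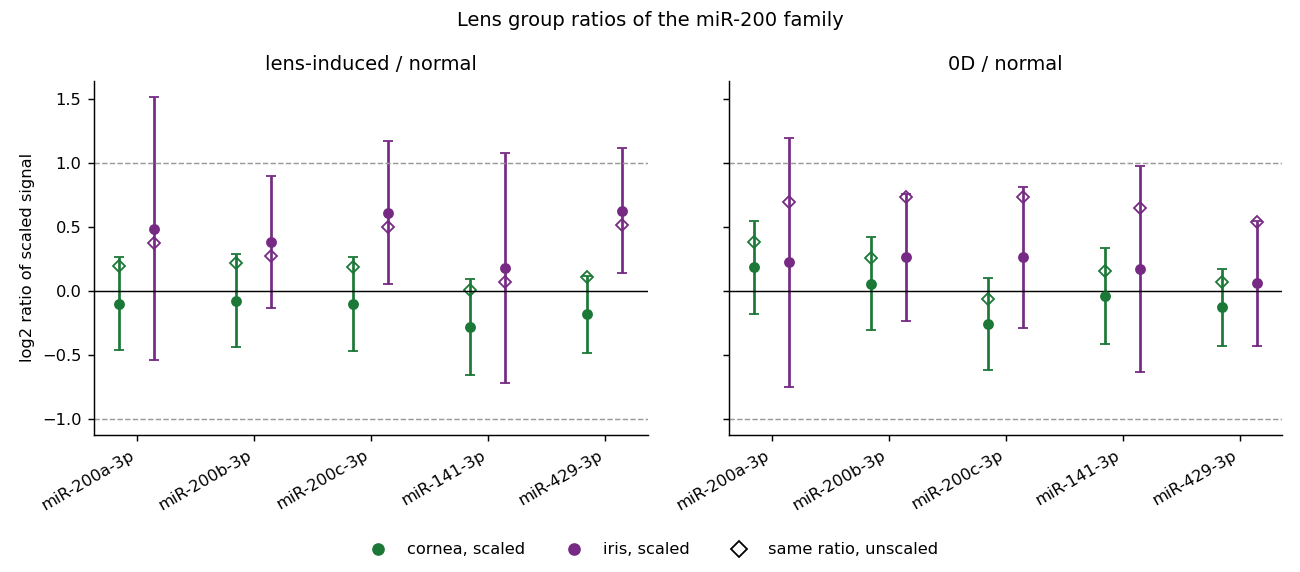
Log2 ratio of lens-induced to normal and of 0D to normal signal for the 5 members, in the cornea (green) and iris (purple). Filled points are scaled ratios with bars of 2 errors, open diamonds are the same ratios without scaling, and dashed lines mark 2-fold. The lens-induced ratios lie below 0 in the cornea and above 0 in the iris, and the diamonds of the cornea lie at or above 0.

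By the fold limits that the methods state, a ratio over 2 or under 0.5 with both arrays detected and over 5 or under 0.2 with 1 array detected, 1 of the 6 members changed in the lens-induced cornea, miR-200b-5p upward. There 33.0% of 179 miRNAs detected on at least 1 of the arrays met the criteria. An undetected miRNA was set here to 0.1, the value that the deposited files print for it, which is below the lowest signal detected on any array, so a miRNA detected on 1 of 2 arrays readily meets the limits. In the lens-induced iris 0 of 5 members met them, beside 17.9% of 234 miRNAs. For 0D against normal 0 of 5 met them in the cornea, beside 21.0% of 157, and 0 of 5 in the iris, beside 17.0% of 241. In the other 6 tissues no member was detected on any array to be compared.

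The call of miR-200b-5p rested on 1 of its 4 probes. Before scaling this probe had a signal of 2.50 in the normal, 2.41 in the 0D and 2.52 in the lens-induced cornea, which were 2.53, 2.65 and 3.13 times its error, so that the lens-induced array alone passed the limit of 3. After scaling the same probe had 4.93, 4.13 and 4.06, and the array that passed had the lowest value of the 3. The other 3 probes lay below 0 on every cornea array. No bound for a fold can be given, because the limit on the normal array, 24.4, was above the lens-induced signal.

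The opposite arms of the other hairpins, miR-200a-5p, miR-200c-5p, miR-141-5p and miR-429-5p, were not detected on any of the 24 arrays. None of their 336 probe readings passed 3 errors, and the highest, 2.19 errors for miR-200a-5p, came from the lens-induced cornea. On the cornea arrays, where the 3p arms of these hairpins were bright, the limits for these 4 arms lay between 15.8 and 24.4.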

How the data were processed

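The authors hybridized 100 ng of total RNA per array to Agilent mouse miRNA arrays and made the deposited intensity values with Feature Extraction 10.7.1.1, which subtracts the background and gives each probe a total signal and an error. The deposited normalized table and its group comparisons were not used. Probe sums were computed anew, since the printed total differed from the sum for some members, scaled to the 75th percentile of the 79 miRNAs detected on all arrays, floored at 9.93 and tested on the log2 scale with limma 3.58.1 in R 4.3.3 (lmFit, eBayes, Benjamini-Hochberg). Descriptions and errors were computed in Python 3.11.15 with numpy 2.4.6. The members, lists and tests were chosen with earlier results of these data known. Named were the members, the arms of the same hairpins, an epithelial list and the 3 most similar miRNAs. The fit was tested on simulated data, and 1 array a tissue and lens group limits the precision. The comparisons within a tissue used the methods' ratio criteria. Sequences and positions came from RefSeq (GRCm38.p6). Alternatives were another scaling, floor, filter, background correction and omission of a tissue or lens group.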

Additional observations from a re-analysis of the deposited data

Results flagged for a closer look

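The lens-induced to normal log2 ratio had opposite signs in the cornea and the iris for all 5 members detected in both tissues, with 1 array on each side. It was −0.10 in the cornea and 0.48 in the iris for miR-200a-3p, −0.077 and 0.38 for miR-200b-3p, −0.11 and 0.61 for miR-200c-3p, −0.28 and 0.18 for miR-141-3p, and −0.19 and 0.63 for miR-429-3p. The difference between the tissues was not tested, since each ratio rests on 2 arrays. The 5 ratios of a tissue share both arrays and a scaling factor, and without scaling the cornea ratios were between 0.01 and 0.21, so that the signs no longer opposed.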

How the results depend on the processing

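In the cornea comparison 5 members were called higher under each of 12 alternatives, with log2 differences from 2.44 to 10.9. For the non-retinal ocular tissues against the brain regions, 3 members were called in the reported fit. The count was 5 with undetected values at the lowest detected signal of the array, 5 with them at 0.1 and 0 without the cornea arrays. It was 1 with the total signal printed in the files. On the iris arrays that total exceeded the sum over the miRNA's own probes for miR-200b-3p, miR-200c-3p and miR-141-3p. For miR-141-3p in the normal iris it was 66.8 against 7.01. In the lens-induced cornea it was 310 against 2.52 for miR-200b-5p, which was not in the fit. That alternative therefore does not rest on a member's own probes alone. No member was called between lens groups over the ocular tissues under any alternative run, with log2 differences from −0.12 to 0.31 and adjusted p of limma from 0.349 to 1. The leave-one-out fits called 5 to 5 members in the cornea comparison, 3 to 3 against the brain regions and 0 to 0 between lens groups. By the ratio criteria, lens-induced against normal gave 1 member as reported, 3 with quantile normalization (miR-200b-5p in the cornea, miR-200c-3p and miR-429-3p in the iris), 0 with normexp background correction and 0 with the undetected side at the lowest detected signal. For 0D against normal the count was 0 as reported and 3 with quantile normalization, all in the iris. The cause of these changes was not tested. Scaling to the 75th percentile over all miRNAs could not be run, because that percentile was above 0 on 23 of 24 arrays, and restricting the fit to miRNAs detected on every array left no member. Normexp was run on median rather than mean spot signals, since the files hold no mean. Replicates could not be blocked, since each tissue and lens group has 1 array, and tissue and lens group entered the fits as terms. The low share of detected miRNAs limits what can be said of amounts under the limits of the lens, SCN and sclera arrays.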
